A study of Oreochromis niloticus with 21 samples.

Results

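The spleen of Nile tilapia (Oreochromis niloticus) was examined at 28, 18 and 10 °C by RNA sequencing, with 1 library at each temperature. The fish were 6 months old. The labels give 12 h of adaptation, worded for low temperatures, to every library, the 28 °C one included. The 3 spleen libraries are part of 21 libraries, which cover spleen, liver, kidney, heart, gill, brain and muscle at the same 3 temperatures. How many fish gave RNA to a spleen library is not in the labels. With 1 library per group, differences between temperatures are described without a test of the temperatures themselves.

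The spleen of a bony fish filters the blood. Its red pulp stores erythrocytes and holds macrophages that clear worn cells and particles, and its white pulp holds lymphocytes that meet antigen carried by the blood. Tilapia are warm-water fish that control no body temperature of their own, so a cooled fish has cooled tissues, and prolonged cold is lethal to them.

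Expression was deposited as RPKM, reads scaled by gene length and by a divisor for each library, for 17098 Ensembl gene IDs. As recovered below, the reads on genes were 0.359, 0.352 and 0.3 of this divisor in spleen at 28, 18 and 10 °C. They were 1.77 times it in muscle at 10 °C and 1.43 times it in liver at 28 °C. The divisor was therefore not a total of these reads, and RPKM levels of different tissues are set side by side with this limit. Of the 17098 genes, 4666 reached 5 RPKM in at least 1 spleen library, and these genes are compared here. The threshold was passed by 3160 genes at 28 °C, 3331 at 18 °C and 3444 at 10 °C, and 2054 genes, 44.0% of those compared, passed it at all 3 temperatures. The last gene inside the threshold had a highest value of 5.00058 RPKM, and the first outside had 4.99855 RPKM. A difference is given on the log2(RPKM + 1) scale, on which 1 is 2-fold, and which understates the differences of low genes. The files pair no ID with a gene name, and 0 of the IDs matched the RefSeq gene table used here, so genes stand by ID, with no role given to them. The tissue label could not be checked against named spleen genes for the same reason.

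Whole reads were recovered from the RPKM values. The reads on genes numbered 916751 in the 28 °C spleen library, 852622 in the 18 °C library and 1056700 in the 10 °C library. The median detected gene had 13, 12 and 16 reads, in that order. At the median gene length, 5 RPKM stood for 33.8, 32.1 and 46.6 reads at 28, 18 and 10 °C. Intervals below are 95% exact intervals on the reads, which cover counting error only. Genes were listed above 0 in numbers of 13320, 13444 and 13688. In all 3 libraries 11883 genes were detected, 69.5% of the total, and 2000 genes, 11.7%, had no read in any of them. The RPKM summed over all genes was 227124.9 at 28 °C, 207339.4 at 18 °C and 133761.9 at 10 °C, so the 10 °C library had the lowest total on this scale and the most reads.

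The spleen transcriptome was led by 2 genes at every temperature. ENSONIG00000001504 was at 21900 RPKM at 28 °C, 24500 at 18 °C and 19300 at 10 °C, and took 14.6%, 16.6% and 15.3% of the reads on genes. Its level was close to even over the temperatures. ENSONIG00000001457 was at 28200 RPKM at 28 °C, 44900 at 18 °C and 6650 at 10 °C. It was the highest gene of the spleen at 28 and 18 °C and stood well below that level at 10 °C. The level at 18 °C was 1.59-fold that at 28 °C (interval 1.58 to 1.61), and the level at 10 °C was 4.23-fold lower than at 28 °C (interval 4.16 to 4.31). The highest value of ENSONIG00000001457 in any library of another tissue was 1170 RPKM, in heart at 18 °C. In bulk tissue, fewer cells of a type and less RNA per cell cannot be told apart.

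Between 28 and 10 °C, 1913 of the 4666 genes (41.0%) differed by 1 or more on the log2 scale. At 10 °C, 1027 genes were higher, 22.0% of those compared, and 886 were lower, 19.0%. Between 28 and 18 °C, 1405 genes (30.1%) differed, of which 713 (15.3%) were higher at 18 °C and 692 (14.8%) lower. Between 18 and 10 °C only 707 genes (15.2%) differed, with 395 (8.47%) higher at 10 °C and 312 (6.69%) lower. The spleen at 10 °C thus stood nearer to the spleen at 18 °C than either did to 28 °C by this count. A difference of 4-fold or more was reached by 199 higher and 223 lower genes at 10 °C, and by 104 in each direction at 18 °C. At 8-fold the numbers were 35 higher and 40 lower at 10 °C, and 22 higher and 13 lower at 18 °C.

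The balance of higher and lower genes rested on how libraries were scaled. The median difference over all genes compared was 0.12 at 10 °C and 0.03 at 18 °C. Scaling to the recovered reads in place of the deposited divisors moved these medians by a further 0.23 and 0.03. The split at 10 °C then became 1403 higher and 657 lower, and that between 10 and 18 °C became 627 higher and 197 lower. Upper quartile scaling moved the medians by -0.13 at 10 °C and -0.11 at 18 °C. The counts of each direction are therefore tied to the deposited scale, whereas the total number at 10 °C lay between 1883 and 2060 under the scalings tried.

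In the higher direction, the 2 largest differences at 10 °C were in genes with little expression at the warmer temperatures. ENSONIG00000002856 was at 2.56 RPKM at 28 °C, 2.47 at 18 °C and 311 at 10 °C, from 24, 22 and 4029 reads. Only the 10 °C library was high, 122-fold above 28 °C (interval 81.5 to 190.0). In other tissues this gene reached 269000 RPKM, in muscle at 10 °C, and it was also higher at 10 °C by 8.07 in kidney and 8.06 in brain on the log2 scale. ENSONIG00000009288 was at 1.61, 0.564 and 116 RPKM at 28, 18 and 10 °C, from 3, 1 and 300 reads, and again the 10 °C library alone was high. Its ratio of 10 to 28 °C was 72.4 (interval 24.5 to 353), and it reached 38300 RPKM in muscle at 18 °C. Its difference at 10 °C on the log2 scale was 5.49 in kidney also, -2.6 in gill and at most 1.41 in the remaining tissues. In the lower direction, ENSONIG00000017558 was at 231, 33.3 and 11.5 RPKM at 28, 18 and 10 °C. The level stepped down at each lower temperature and was 20.1-fold lower at 10 °C (interval 12.1 to 35.8). ENSONIG00000010866 was at 18.3, 7.06 and 0.324 RPKM, from 41, 15 and 1 reads, and followed the same order. Its ratio of 28 to 10 °C was 56.6, with an interval of 9.61 to 2290 because of the single read.

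At 18 °C the highest difference was in ENSONIG00000021671, at 6.88 RPKM at 28 °C, 300.0 at 18 °C and 197 at 10 °C. Both lower temperatures were high. This gene is 114 bp long, so that its 28 °C value came from 2 reads and its ratio of 18 to 28 °C, 43.7, had an interval of 11.7 to 367. ENSONIG00000004362 was at 0.403, 40.3 and 0 RPKM at 28, 18 and 10 °C, from 1, 95 and 0 reads, and was high at 18 °C only. In the other tissues it peaked in brain, at 3770 RPKM. Lower at 18 °C, ENSONIG00000002020 was at 54.6 RPKM at 28 °C, 3.47 at 18 °C and 4.37 at 10 °C. Both lower temperatures lay far under the 28 °C level, by 15.8-fold at 18 °C (interval 10.4 to 24.9) and 12.5-fold at 10 °C (interval 9.14 to 17.5). ENSONIG00000020787 was at 33.6, 1.31 and 1.8 RPKM, from 27, 1 and 2 reads, and was likewise low at both lower temperatures.

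Of the genes that differed at 18 °C, 72.9% differed in the same direction at 10 °C, 520 higher and 504 lower at both. These 1024 genes were 53.5% of those that differed at 10 °C. Both comparisons use the same 28 °C library, so its own deviations enter both. Opposite directions were found in 11 genes, 2 of them higher at 18 °C and lower at 10 °C. The 520 genes higher at both had a median difference of 1.51 at 18 °C and 1.61 at 10 °C. At 10 °C 292 of them were further from the 28 °C level than at 18 °C, 27 by 1 or more, and 10 had come back by 1 or more. The 504 genes lower at both had medians of -1.45 at 18 °C and -1.77 at 10 °C, and 324 were further from 28 °C at 10 °C, 71 of them by 1 or more. Most shared differences were therefore of similar size at both temperatures. Under upper quartile scaling the shared genes were 419 higher and 646 lower, and on recovered reads 620 higher and 398 lower.

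**Figure D1:**
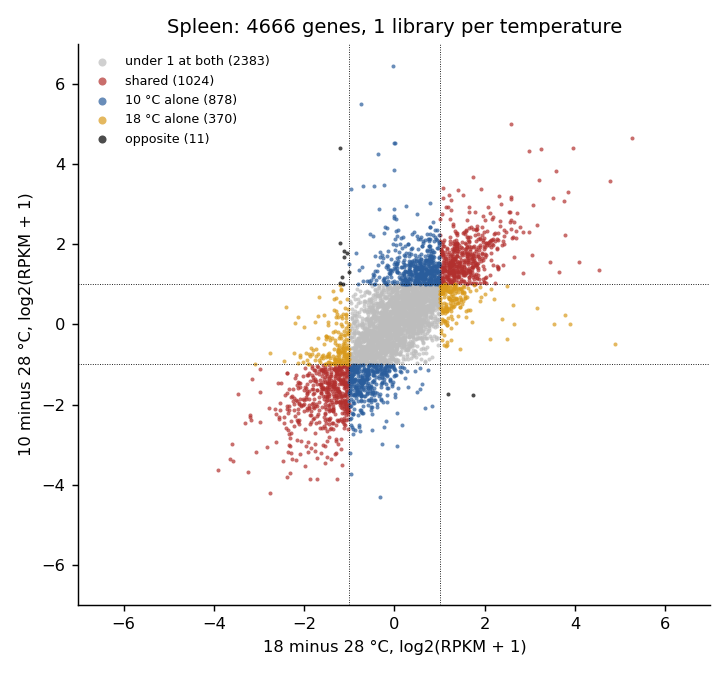
Difference from 28 °C in the spleen at 10 °C (vertical) against 18 °C (horizontal), both on the log2(RPKM + 1) scale, with 1 point per gene among the 4666 compared. Colours mark the 1024 genes that differ by 1 or more at both temperatures in one direction, and those that do so at 10 °C or at 18 °C alone; both axes share the 28 °C library.

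Among the genes higher at both temperatures, ENSONIG00000021671 was followed by ENSONIG00000022120, at 2.61, 55.0 and 75.7 RPKM at 28, 18 and 10 °C. Its length is 150 bp and its reads were 1, 20 and 40, with 18 and 10 °C both above 28 °C. Among the 22 genes at least 8-fold higher at 18 °C, 11 were shorter than 200 bp, and among the 35 at 10 °C 10 were, against 28 of the 4666 compared. Among the genes lower at both, ENSONIG00000020787 was followed by ENSONIG00000012250, at 51.0 RPKM at 28 °C, 3.39 at 18 °C and 3.89 at 10 °C. It was 15.0-fold lower at 18 °C (interval 6.66 to 42.0) and 13.1-fold lower at 10 °C (interval 6.83 to 28.3). The levels at 18 and 10 °C did not differ beyond counting error.

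At 10 °C alone 498 genes were higher and 380 lower. Most leaned the same way at 18 °C: 425 of the 498 had a positive difference there, with a median of 0.55, and 354 of the 380 a negative one, with a median of -0.64. A difference under 0.5 at 18 °C was found for 212 of the higher and 130 of the lower genes. On recovered reads the split was 771 higher and 257 lower. ENSONIG00000012129 had no read at 28 or 18 °C and 130 reads, 22.2 RPKM, at 10 °C. Against a floor of 3 reads at 28 °C it was at least 31.4-fold higher at 10 °C, and the exact interval of the ratio, which also holds the error of the 130 reads, began at 25.1. Elsewhere it was highest in heart, at 1090 RPKM at 10 °C. In kidney it was likewise at 0 RPKM at 28 and 18 °C, and at 22.9 RPKM at 10 °C. On the log2 scale it was higher at 10 °C by 4.58 in kidney and 4.16 in muscle. The remaining tissues lay between -0.36 and 0.24. In the lower direction, ENSONIG00000005934 was at 529 RPKM at 28 °C, 438 at 18 °C and 65.6 at 10 °C, and ENSONIG00000007470 at 498, 425 and 83.6 RPKM. Both were among the more abundant spleen genes at the warmer temperatures and stood apart at 10 °C, 8.07-fold (interval 7.14 to 9.15) and 5.96-fold (interval 5.38 to 6.6) below 28 °C.

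At 18 °C alone 191 genes were higher and 179 lower, the smallest classes. Again 172 of the 191 and 146 of the 179 had the same sign at 10 °C, and 66 and 59 differed by less than 0.5 there. On recovered reads the split was 125 higher and 215 lower. ENSONIG00000022217, 184 bp long, was at 6.39 RPKM at 28 °C, 101 at 18 °C and 7.71 at 10 °C, from 3, 45 and 5 reads, high at 18 °C only. ENSONIG00000008669 was at 16, 2.72 and 16.6 RPKM, and ENSONIG00000011421 at 13.6, 2.67 and 12.9 RPKM. Both were low at 18 °C only, with 28 and 10 °C within counting error of each other. In the other tissues ENSONIG00000008669 peaked in gill, at 95.2 RPKM at 28 °C. ENSONIG00000011421 peaked in liver, at 183 RPKM at 28 °C, and 13 libraries of the other tissues held no read of it.

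Expression level separated the genes that were lower. Among the 3997 genes with a mean under 20 RPKM over the spleen libraries, 22.5% were higher and 16.6% lower at 10 °C. Among the 530 genes from 20 to 100 RPKM the shares were 21.1% and 26.4%. Among the 83 genes from 100 to 500 RPKM, 12 were higher and 41 lower, and among the 56 genes at 500 RPKM or more, 3 were higher and 43 lower. The 56 most abundant genes had a median difference of -1.92 at 10 °C and -1.06 at 18 °C, where 5 were higher and 31 lower. Between 18 and 10 °C, 25 of them were lower at 10 °C and 0 higher by 1 or more. Their share of the reads on genes was 40.5%, 40.1% and 28.4% at 28, 18 and 10 °C. Of this, ENSONIG00000001457 took 5.93%, 9.64% and 1.68%, and ENSONIG00000001504 took 14.6%, 16.6% and 15.3%. The near-even share at 18 °C thus includes a rise of both, and the rest of the 56 held less there than at 28 °C. Under each scaling tried, 39 to 45 of the 56 genes were lower at 10 °C. The scalings moved the median over all genes there by -0.13 to 0.23, so they could not have reversed a median of -1.92.

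**Figure D2:**
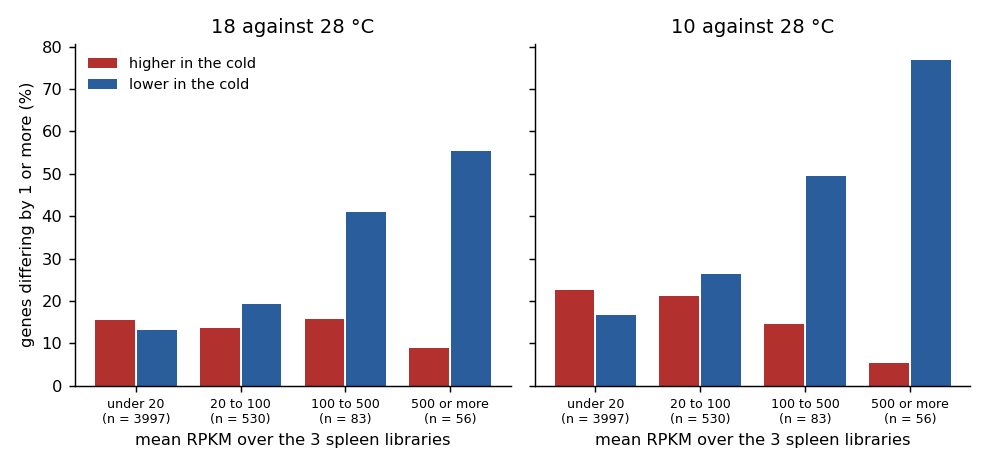
Share of spleen genes higher and lower by 1 or more on the log2(RPKM + 1) scale, at 18 and 10 °C against 28 °C, in 4 bands of mean RPKM over the spleen libraries. The lower genes make up 16.6% of the lowest band and 76.8% of the highest at 10 °C.

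The abundant genes were also short, with a median length of 754 bp, and gene length moved with the difference over all genes. Genes were split by length into 4 groups of near-equal size. In the shortest, 72 to 1380 bp, the median difference was -0.33 at 10 °C and -0.41 at 18 °C. It was -0.08 and -0.19 in the group from 1382 to 2363 bp, and 0.17 and 0.10 in that from 2364 to 3708 bp. In the longest, 3709 to 25119 bp, it reached 0.61 at 10 °C and 0.47 at 18 °C. The lower temperatures both stood apart from 28 °C in this way: between 18 and 10 °C the medians of the length groups were -0.02, 0.06, -0.01 and 0.04. Genes higher at both temperatures had a median length of 2974 bp and genes lower at both one of 1409.5 bp. With the length trend removed, 34 of the 56 abundant genes were still lower at 10 °C and 3 higher, with a median of -1.41. At 18 °C 9 were then lower and 6 higher, with a median of -0.61. The part of fragment length or RNA quality in the length trend was not tested.

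**Figure D3:**
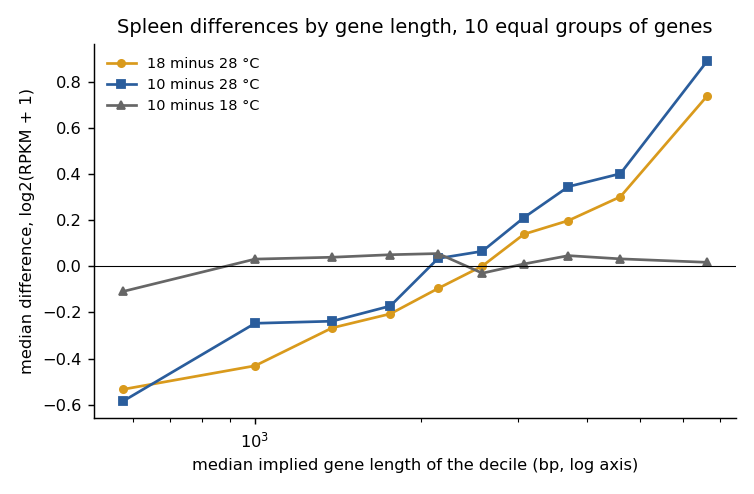
Median difference in spleen on the log2(RPKM + 1) scale (vertical) against the median gene length in bp on a logarithmic axis (horizontal), in 10 groups of near-equal size, with 1 line for each pair of temperatures. The lines for 18 and 10 °C against 28 °C climb from below 0 for short genes to above 0 for long ones, and the line for 10 against 18 °C stays near 0.

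Genes that belong to other tissues were traced in the spleen libraries. Lists were made from the 18 libraries of the other tissues alone, of genes whose mean was at least 5 RPKM and at least 4-fold above every other of these tissues, and the 20 genes with the highest mean led each list. The 20 leading heart genes had a median of 1.35 RPKM in spleen at 28 °C, 0.633 at 18 °C and 19.8 at 10 °C. At 10 °C 14 of the 20 (70.0%) were higher by 1 or more, against 22.0% of the genes compared, and none of them was at 0. At 18 °C no leading heart gene was higher by 1, against 15.3%. The 20 leading genes of each list were taken whatever their level in spleen. The 22.0% and 15.3% cover only genes that reached 5 RPKM there, so the sets are unlike. With each leading gene taken as a percentage of its own level in heart, the median percentage at 10 °C was 1.69%. The heart list did not show this excess over its genes that reached 5 RPKM in spleen. Of its 87 genes among those compared, leading genes included, 22 (25.3%) were higher at 10 °C and 27 (31.0%) lower, with a median of -0.44. At 18 °C 5 (5.75%) were higher and 25 (28.7%) lower. The summed RPKM of all 207 heart genes was 1800, 1210 and 1550 at 28, 18 and 10 °C. That was 0.791%, 0.585% and 1.16% of the summed RPKM of all genes, which was itself lowest at 10 °C.

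The 20 leading brain genes had medians of 0.354, 2.62 and 0.0622 RPKM in spleen at 28, 18 and 10 °C. At 18 °C 12 of them (60.0%) were higher by 1 or more. The share was 15.3% of the genes compared, which all reached 5 RPKM in spleen, with no such limit on the leading genes. None of the leading brain genes was at 0 at 18 °C, against 9 at 28 °C and 10 at 10 °C. No leading brain gene was higher by 1 at 10 °C. With each leading gene taken as a percentage of its own level in brain, the median percentage at 18 °C was 1.49%. Of the 32 brain genes among those compared, 10 (31.2%) were higher and 4 (12.5%) lower at 18 °C. At 10 °C 10 (31.2%) were higher and 11 (34.4%) lower, against 22.0% and 19.0% of all genes compared. Over all 763 brain genes the sum was 456, 656 and 413 RPKM, or 0.201%, 0.317% and 0.309% of the summed RPKM. Leading liver genes had medians of 0.472, 0.901 and 2.72 RPKM, with 10 of 20 higher by 1 or more at 10 °C. Of the 145 liver genes compared, 25 (17.2%) were higher there and 43 (29.7%) lower. The sum of the 598 liver genes was highest at 28 °C, at 14900 RPKM against 6300 and 6340. As shares of the summed RPKM these were 6.55%, 3.04% and 4.74%. Leading muscle genes were higher by 1 or more in 6 of 20 (30.0%) at 10 °C, not far from the 22.0% of all genes compared. Of the 59 muscle genes compared, 12 (20.3%) were higher and 13 (22.0%) lower. The sums of the 449 muscle genes were 935, 919 and 1280 RPKM, or 0.412%, 0.443% and 0.959% of the summed RPKM. Of the leading kidney genes 0 (0.0%) and of the leading gill genes 2 (10.0%) were higher by 1 or more at 10 °C. The sums were 383, 430 and 457 RPKM for the 333 kidney genes, and 1070, 609 and 731 RPKM for the 401 gill genes. As shares of the summed RPKM these were 0.169%, 0.207% and 0.342% for kidney, and 0.473%, 0.294% and 0.547% for gill. Of the 33 kidney and 63 gill genes compared, 7 (21.2%) and 8 (12.7%) were higher at 10 °C, against 22.0% of all genes compared. Lower at 10 °C were 7 (21.2%) and 27 (42.9%), against 19.0%. For heart, the excess of higher genes at 10 °C was thus seen in the 20 leading genes and not over the heart genes compared. The heart genes under 5 RPKM in every spleen library were not part of that comparison.

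**Figure D4:**
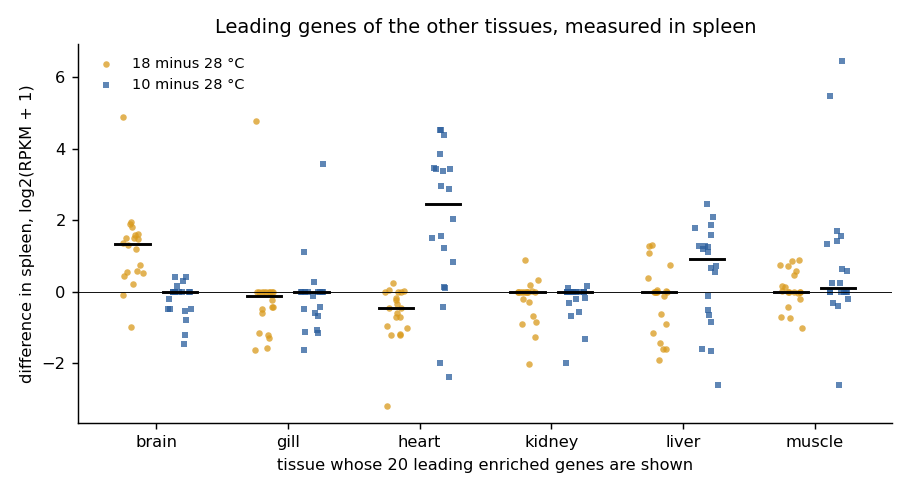
Difference in spleen from 28 °C, on the log2(RPKM + 1) scale, of the 20 leading genes of each other tissue, with circles for 18 °C and squares for 10 °C. Each point is 1 gene, black lines are medians over the 20 genes, and points at 0 include genes with no read at either temperature; heart genes lie highest at 10 °C (14 of 20 at 1 or more) and brain genes at 18 °C (12 of 20).

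ENSONIG00000002856 led the muscle list, ENSONIG00000004362 led the brain list and ENSONIG00000012129 was on the heart list. Of the 35 genes at least 8-fold higher at 10 °C, 16 (45.7%) were on a list of another tissue, 8 of them on the heart list, against 419 (8.98%) and 87 (1.86%) of the 4666 genes compared. Of the 6 genes with no read at 28 °C and at least 20 at 10 °C, 5 were on such a list, 4 of them on the heart list. A gene under 5 RPKM at 28 °C was compared only if it reached 5 RPKM at 18 or 10 °C. Genes of other tissues that are low in spleen are therefore favoured among the largest rises. The shares of all genes compared are not matched for the level at 28 °C. The part of material from other tissues in these differences was not tested. Among the 4247 genes on none of these lists, 943 were higher and 758 lower at 10 °C, and 656 higher and 567 lower at 18 °C.

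A further 122 genes were at least 4-fold higher in spleen than in every other tissue, which these libraries themselves defined. They held 24.4% of the summed RPKM at 28 °C, 37.1% at 18 °C and 24.6% at 10 °C, led by ENSONIG00000001457. Their sums were 55500, 76900 and 32900 RPKM, in that order. ENSONIG00000001457 alone was at 28200, 44900 and 6650 RPKM, and ENSONIG00000001504 at 21900, 24500 and 19300. Both are on this list, so its sums and shares of RPKM mostly followed these genes. At 10 °C 37 of the 122 genes (30.3%) were higher by 1 or more, against 22.0% of all genes compared, and 24 (19.7%) lower, against 19.0%. At 18 °C 32 (26.2%) were higher, against 15.3%, and 21 (17.2%) lower, against 14.8%. Their median differences were 0.48 and 0.47, and the shares of lower genes were near those of all genes.

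The other tissues were then asked how they treated the same genes. Among the 520 genes higher in spleen at both lower temperatures, 122 (23.5%) were also higher at both in liver, against 13.3% of all 4666 genes. In gill the share was 5.77% against 7.54%, and in brain, heart, kidney and muscle it was 1.35%, 1.73%, 0.962% and 3.65%, near the 0.643%, 1.65%, 0.75% and 3.45% of all genes. Among the 504 genes lower at both, 176 (34.9%) were lower at both in liver, against 20.6%, and 53 (10.5%) in gill, against 10.1%. In brain, heart, kidney and muscle the shares of lower genes were 1.19%, 1.98%, 5.16% and 8.33%, against 0.643%, 2.57%, 4.03% and 5.66%. The excess in liver was seen in every length group for the higher genes, from 23.2% against 9.93% in the shortest to 22.8% against 18.2% in the longest. In no other tissue was the same shared difference found for 354 of the 520 higher genes (68.1%) and 243 of the 504 lower genes (48.2%), where all compared genes gave 75.1% and 64.1%.

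Brain came closest to the genes that differed in spleen at 10 °C alone. Of the 498 higher genes, 178 (35.7%) were also higher in brain at 10 °C, against 14.0% of all genes, and 24 (4.82%) were lower, against 26.2%. Of the 380 lower genes, 249 (65.5%) were lower in brain, against 26.2%, and 4 were higher. The excess for the lower genes was present in every length group, at 73.3% against 40.1% in the shortest and 47.8% against 8.31% in the longest. Liver shared 25.7% of the higher genes against 18.9%, and 35.8% of the lower genes against 26.9%. For the lower genes the shorter length groups showed no excess in liver, at 41.5% against 42.8% and 28.0% against 28.8%. The longer groups did, at 34.8% against 22.3% and 39.1% against 13.5%. Heart and kidney shared 5.82% and 6.63% of the higher genes, against 3.21% and 4.84%, and 12.9% and 12.4% of the lower genes, against 8.02% and 10.8%. Muscle leaned the other way: it shared 6.83% of the higher genes, against 10.8%, and 5.79% of the lower genes, against 13.3%, while 22.3% and 23.7% differed there in the opposite direction, against 13.3% and 10.8%. Gill had opposite differences in 20.9% of the higher genes, against 15.1%, and in 17.9% of the lower genes, against 10.9%. It shared 7.03% and 17.4%, against 10.9% and 15.1%. Its share of the lower genes was near that of all genes in every length group. It ran from 28.1% against 27.1% in the shortest to 6.52% against 7.63% in the longest. In brain 51.4% of its own genes differed from 28 °C at 10 °C but 4.16% at 18 °C, so its 10 °C library stood apart. In liver 62.1% differed from 28 °C at 10 °C and 62.2% at 18 °C, but 22.1% between the lower temperatures, so there the 28 °C library did.

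**Figure D5:**
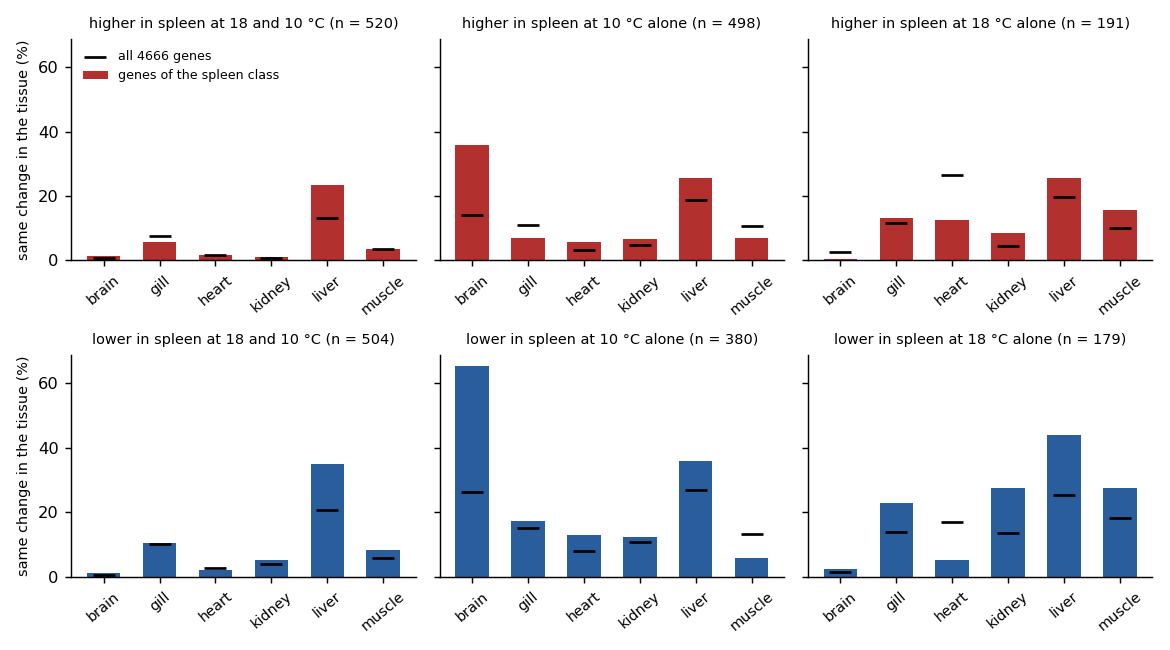
Share of each class of spleen genes that differed in the same direction, by 1 or more on the log2(RPKM + 1) scale, in each of the other 6 tissues at the same temperature or temperatures. Bars are the class members and black dashes are all 4666 genes; the largest gap is for genes lower at 10 °C alone in brain, 65.5% against 26.2%.

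Heart went against the genes that differed in spleen at 18 °C alone. Of the 191 higher genes, 24 (12.6%) were higher in heart at 18 °C, against 26.6% of all genes, and 58 (30.4%) were lower, against 17.0%. Of the 179 lower genes, 9 (5.03%) were lower in heart, against 17.0%, and 76 (42.5%) were higher, against 26.6%. Kidney shared 8.38% of the higher genes, against 4.59%, and 27.4% of the lower genes, against 13.5%. Liver shared 25.7% against 19.8%, and 44.1% against 25.2%. Muscle shared 15.7% of the higher genes, against 10.0%, and 27.4% of the lower genes, against 18.1%. Gill shared 13.1% against 11.5%, and 22.9% against 13.9%. Of the 179 lower genes 88 were in the shortest length group, and the shares of all genes are not matched for length. In that group the lower genes gave 51.1% against 42.6% in liver and 34.1% against 27.7% in kidney. They gave 39.8% against 30.7% in muscle and 29.5% against 22.9% in gill. The middle length groups showed no excess in muscle, at 12.5% against 14.5% in the longer one. In the longest, muscle had 17.6% against 6.77%, and kidney and gill showed no excess. In heart 54.3% of its own genes differed between 18 and 28 °C and 56.0% between 10 and 18 °C, but 15.1% between 10 and 28 °C, so its 18 °C library stood apart.

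The 56 most abundant spleen genes were lower at 10 °C in some other tissues and not in others. These genes were short, and the shares of all genes given beside them are not matched for length. In the shortest length group 40.1% of genes were lower at 10 °C in brain, 42.8% in liver and 27.1% in gill. At 18 °C 42.6% of that group were lower in liver and 27.7% in kidney. In heart 47.7% of it were higher at 18 °C, and in gill 15.6%. In brain at 10 °C 41 of the 56 (73.2%) were lower, against 26.2% of all genes, with a median of -1.92, the same as in spleen. In liver 29 (51.8%) were lower at 10 °C, against 26.9%, and in gill 21 (37.5%), against 15.1%. Heart and kidney had 2 (3.57%) and 7 (12.5%) lower at 10 °C, against 8.02% and 10.8%. They had 0 (0.0%) and 1 (1.79%) higher, against 3.21% and 4.84%. Muscle went the other way at 10 °C, with 14 higher, against 10.8%, 5 lower and a median of 0.56. At 18 °C, where the spleen median was -1.06, liver had 31 (55.4%) lower, against 25.2%, and kidney 19 (33.9%), against 13.5%. Heart and gill went the other way at 18 °C, with 42 of 56 higher, against 26.6% of all genes, and a median of 1.81 in heart, and 25 (44.6%) higher, against 11.5%, and a median of 0.86 in gill. Brain had 5 (8.93%) lower at 18 °C, against 1.33% of all genes, and muscle 13 (23.2%), against 18.1%.

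Whether the spleen differed from the other 6 tissues in its temperature difference was tested gene by gene with limma, on 15312 genes, taking the tissues as the units. No gene passed a Benjamini-Hochberg adjusted p of 0.05 in limma for 10 against 28 °C (0.0% called), for 18 against 28 °C (0.0%) or for the mean of both against 28 °C (0.0%). Unadjusted limma p-values under 0.05 were found for 536, 569 and 666 genes, in that order. These were 3.5%, 3.72% and 4.35% of those tested, below the share that this threshold passes by chance. With a pseudocount of 5 in place of 1, 2 genes passed for 10 against 28 °C, both lower in spleen. These were ENSONIG00000020787 and ENSONIG00000020972, and no other setting tried gave a call. The share of genes with a small unadjusted p was not below the chance share in every setting. It was above it with the pseudocount of 5. For 10 against 28 °C it was also above it with brain left out, and with brain, gill and liver left out. The same held there over the genes that reached 5 RPKM in spleen. For 18 against 28 °C it was just above it with liver left out, and above it with gill, heart and liver left out. For the mean of both it was above it over the genes at 5 RPKM in spleen. That was also so with brain, with liver, or with brain, gill, heart and liver left out.

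Here and in the next paragraph, the genes with the smallest p-values in each direction are given among those with at least 20 reads. This minimum applied to the highest of the spleen libraries compared. ENSONIG00000020787 had a spleen difference of -3.63 at 10 °C, while the other 6 tissues lay between 0.00 and 0.05. The departure was -3.64 ± 0.49 (SE, limma adjusted p = 0.857), and 14 of the 18 other libraries held no read of it. ENSONIG00000020972 was at 34.4, 11.5 and 3.68 RPKM in spleen at 28, 18 and 10 °C and at most 2.16 RPKM elsewhere. Its level stepped down with temperature in spleen, and its departure was -2.94 ± 0.46 at 10 °C (SE, limma adjusted p = 1.0). In the higher direction, ENSONIG00000021447 was at 1.04, 5.85 and 25.4 RPKM, from 3, 16 and 101 reads, stepping up at each lower temperature, with at most 4.92 RPKM in any other library. Its departure at 10 °C was 3.63 ± 0.65 (SE, limma adjusted p = 1.0). ENSONIG00000000213 was at 0.44, 2.08 and 5.25 RPKM in spleen, from 2, 9 and 33 reads, in the same order, but reached 23.6 RPKM in gill at 28 °C. Its departure at 10 °C was 2.47 ± 0.5 (SE, limma adjusted p = 1.0).

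At 18 °C, ENSONIG00000009683 was at 1.17, 17.1 and 16.2 RPKM in spleen at 28, 18 and 10 °C, from 8, 111 and 153 reads. Both lower temperatures were high and alike, and the other tissues differed at 18 °C by -1.11 to 0.17. The departure at 18 °C was 3.49 ± 0.55 (SE, limma adjusted p = 1.0). ENSONIG00000001539 was at 0.301, 3.59 and 2.83 RPKM in spleen, from 3, 34 and 39 reads, also high at both, and reached 113 RPKM in brain at 28 °C. Its departure was 1.92 ± 0.36 (SE, limma adjusted p = 1.0). ENSONIG00000007203 was at 11.8, 0.4 and 1.65 RPKM, from 31, 1 and 6 reads, low at both lower temperatures. The other tissues lay between -0.16 and 0.57 for it, and its departure was -3.37 ± 0.47 (SE, limma adjusted p = 1.0). ENSONIG00000011435 was at 7.12, 0.599 and 0 RPKM, from 25, 2 and 0 reads, again low at both, with at most 4.04 RPKM elsewhere and a departure of -2.57 ± 0.48 (SE, limma adjusted p = 1.0). For the mean of both temperatures the smallest p-values were those of ENSONIG00000021447, ENSONIG00000009683, ENSONIG00000020787 and ENSONIG00000011435, each with a limma adjusted p of 0.982. None of these genes was called with the pseudocount of 1.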

How the data were processed

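The authors deposited 1 RPKM value per gene and library, per the file headers. The submitters' processing notes name TopHat, Bowtie and HTSeq; for these tools and for the reference genome, the version is not given in the sources used here. Each of the 21 libraries was grouped by its labelled tissue and temperature. Solving RPKM for whole reads, gene length and library divisor gave 17082 genes, with 100% of values whole within 1e-06, and left 16 unsolved. The implied median length was 2647 bp. Poisson and conditional binomial intervals (scipy 1.17.1) used these reads.

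Spleen genes at 5 RPKM or more were compared on log2(RPKM + 1). With limma 3.58.1 (R 4.3.3, mean-variance trend), a model compared the spleen's difference with those of the 6 other tissues for genes at 1 RPKM in at least 3 libraries; its p-values are two-sided and measure spread between tissues, not fish. The script was tested on simulated data.

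The genes and lists were chosen with earlier results of these data known. In each comparison and class the 2 genes farthest out in each direction with at least 20 reads were named. With the same minimum, the 2 with the smallest p in each direction of each limma test were named. The 2 highest genes were named also. Lists of pathway and marker symbols could not be used, as no ID matched a name. Bands of level, length groups and lists of tissue genes were set after the data were seen.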

Additional observations from a re-analysis of the deposited data

Results flagged for a closer look

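ENSONIG00000020787 had a difference of -3.63 on the log2(RPKM + 1) scale between 10 and 28 °C in spleen, far from the other 6 tissues, which lay between 0.00 and 0.05. The spleen values were 33.6 RPKM at 28 °C, 1.31 at 18 °C and 1.8 at 10 °C, from 27, 1 and 2 reads. Of the 18 libraries of the other tissues, 14 held no read of it, so there was little to measure in them, and it was named for its low spleen values. The mark by Dixon's criterion therefore describes the choice of the gene and is no test of it. The criterion was applied to 23 sets of 7 tissues, 18 of them of genes named here for their spleen values, and chance alone marks about 1 set in 20.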

How the results depend on the processing

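No paired analysis was possible because each group holds 1 library and the labels number no replicates. Counts are given in the order 10 against 28 °C, 18 against 28 °C, 10 against 18 °C, shared, 10 °C alone and 18 °C alone. The values in the report were 1913, 1405, 707, 1024, 878 and 370. A pseudocount of 5 gave 894, 547, 268, 365, 527 and 180. A minimum of 1 RPKM gave 2985, 2348, 1209, 1455, 1518 and 881. No minimum had to give the same, because a gene under 1 RPKM in every spleen library cannot differ by 1 on this scale. A minimum of 20 RPKM gave 576, 398, 247, 325, 247 and 69. A difference of 2 gave 422, 208, 92, 118, 304 and 90. Counting intervals wholly beyond 2-fold were met by 1064, 604, 224, 422, 641 and 181. The shared genes then split into 129 higher and 236 lower with a pseudocount of 5, and those at 18 °C alone into 113 and 68 under the counting interval. The other settings tried were a pseudocount of 0.5, 2 scalings, centring on the median, removing the length trend and, added after the data were seen, scaling to recovered reads and leaving out genes of other tissues. They kept each of the 6 counts within 1.5 times.

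A spleen gene differed in the same way in another tissue in 1887 pairs of gene and tissue. A limit of 0.5 in the other tissue gave 3429 pairs, and a pseudocount of 5 gave 641. The limma test for 10 against 28 °C gave 2 genes with a pseudocount of 5 and 0 at the other settings. The smallest adjusted p in limma was 0.0447, against 0.297 to 1.0. Genes at an unadjusted limma p under 0.05 numbered 260 to 1709, or 2.74% to 11.2% of those tested. Under median-of-ratios scaling those were 168 higher and 266 lower, against 355 and 181 as deposited. The highest share came with brain, gill and liver left out. The causes were not tested. None of the 114 values of named genes changed direction with a pseudocount of 5, median-of-ratios scaling or centring on the median. A typical gene had 12 to 16 reads in a spleen library, so single reads decide low values.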
